A study of Mus musculus with 6 samples.

Results

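The genes for 8 integrin subunits (*Itgb1*, *Itgb2*, *Itgb7*, *Itga4*, *Itga5*, *Itga6*, *Itgal* and *Itgam*) and for the hyaluronan receptor *Cd44* were followed across RNA-Seq libraries of LT-CML stem cells. They were chosen by gene symbol, and all 9 were found once each among the 36976 genes of the FPKM table. Each passed the filter on low values, a mean of at least 0.05 FPKM (fragments per kilobase of gene, scaled to the fragments mapped) over the libraries, which left 24689 genes. The series compared LT-CML stem cells of *Gdpd3*+/+ mice, in 3 libraries (replicates 1, 2 and 3), with those of *Gdpd3*-/- mice, in 3 libraries (replicates 5, 6 and 7). *Gdpd3* encodes a lysophospholipase D, and the question was how its loss alters gene expression in the stem cells of chronic myelogenous leukaemia (CML). All mice were C57BL/6 and carried both *SCL-tTA* and *TRE-BCR-ABL1*, so the oncogene was switched on by withdrawing doxycycline, in the cells where the *SCL* element drives the transactivator. Cells were taken 5 weeks after the withdrawal from mice of 10 to 12 weeks of age. The sources name 22 males and 12 females for *Gdpd3*+/+ and 5 males and 5 females for *Gdpd3*-/-, more mice than libraries, so each library may pool mice. The *Gdpd3*-/- allele is a small Cas9-made deletion in the coding sequence. The sorted cells were CD150+CD48-CD135-Lineage-Sca-1+cKit+, and the lineage antibodies included one to Mac1, the protein of *Itgam*. The gate was therefore set to exclude cells bearing that protein in both groups. The sources state that the fractions were not checked again after sorting.

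An integrin is a pair of one alpha and one beta chain in the cell membrane. The beta1 chain joins alpha4, alpha5 or alpha6 to bind Vcam1, fibronectin or laminin. The beta2 chain, made by leukocytes, joins alphaL (LFA-1) or alphaM (Mac-1) to bind Icam proteins, and alphaM also binds complement fragments. The beta7 chain joins alpha4 or alphaE and is best known for homing to the gut. Cd44 binds hyaluronan and, in mouse models of CML, is known for its part in the homing of leukaemic stem cells to the marrow. Haematopoietic stem cells use these receptors to lodge in the marrow niche.

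Relative depth, inferred from the spacing of low FPKM values, was 4.98 to 6.28 in the *Gdpd3*+/+ libraries and 2.13 to 3.64 in the *Gdpd3*-/- libraries. The unit of this spacing was not established, and the comparison takes it to be the same in each library. The targeted gene, *Gdpd3*, lay between 2.95 and 7.30 FPKM in *Gdpd3*+/+ and between 0.0129 and 0.681 FPKM in *Gdpd3*-/-. Its log2 fold change was −4.00 with a limma adjusted p of 0.0588, so even this gene missed the threshold of 0.05 used below. Among the genes of the gate, *Kit* (108 to 136 FPKM) and *Ly6a*, which encodes Sca-1 (342 to 563 FPKM), were found in all 6 libraries, and *Slamf1*, which encodes CD150, at 5.41 to 13.2 FPKM. Transcripts of the negative gates were present as well. *Cd48* was at 39.8 to 92.2 FPKM, and *Flt3*, which encodes CD135, was at 9.80 to 11.01 FPKM in *Gdpd3*+/+ and at 36.8 to 46.5 FPKM in *Gdpd3*-/-. The summed FPKM of 10 neutrophil genes was 23324 to 27292 in *Gdpd3*+/+ and 6299 to 13083 in *Gdpd3*-/-, and that of 10 monocyte and macrophage genes, most of it *Ly6c2*, was 1797 to 1880 and 525 to 738. In the opposite direction, the sum of 13 skeletal muscle genes was 970 to 1434 FPKM in *Gdpd3*+/+ and 12488, 17908 and 2381 FPKM in *Gdpd3*-/- replicates 5, 6 and 7. By gene, 6 of the 10 neutrophil genes lay lower in every *Gdpd3*-/- library, 3 of them called by limma, 2 of the 10 monocyte and macrophage genes (*Ly6c2* and *Vcam1*) did, both called, while the other 8 overlapped and the median log2 fold change of that list was 0.17, with 6 of 10 above 0, and all 13 muscle genes lay higher, of which 0 were called and 13 had an unadjusted p under 0.05. Among all genes tested, 8.27% lay lower and 23.5% higher in every *Gdpd3*-/- library. Limma called 0.616% lower and 1.09% higher, and 16.5% were higher at an unadjusted p under 0.05. No gene of the neutrophil, monocyte and macrophage, and muscle lists was at 0 in any library. In bulk libraries fewer cells of a type and less RNA per cell cannot be told apart.

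The promoters of 6 of the 9 genes were found in RefSeq (GRCm38.p6), and those of *Itgam* and *Itgb7* are printed because they had the lowest and the highest fold change of the 9 genes. Each is the 250 bases before the transcription start, and the coordinates are of GRCm38.p6, not of the mm9 build of the FPKM table. Capitals mark matches of 6 motifs searched on both strands, namely GAGGAA and CCGGAA (Ets family cores), GGGCGG (the GC box), TGTGGT (the Runx core), TATAAA (the TATA box) and CACGTG (the E-box).
*Itgam*, chr7:128062390-128062639, plus strand: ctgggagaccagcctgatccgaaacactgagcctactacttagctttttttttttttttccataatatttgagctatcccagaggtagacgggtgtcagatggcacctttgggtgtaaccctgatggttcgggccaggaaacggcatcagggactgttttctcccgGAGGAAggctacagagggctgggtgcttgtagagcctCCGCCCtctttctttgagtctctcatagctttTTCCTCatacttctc
*Itgb7*, chr15:102231936-102232185, minus strand: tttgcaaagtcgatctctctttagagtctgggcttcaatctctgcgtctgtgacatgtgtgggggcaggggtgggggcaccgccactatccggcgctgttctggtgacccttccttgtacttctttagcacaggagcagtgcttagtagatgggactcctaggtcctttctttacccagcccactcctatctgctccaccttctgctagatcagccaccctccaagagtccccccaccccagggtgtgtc
The *Itgam* window held GAGGAA at 2 places, starting 84 and 15 bases before the transcription start, and GGGCGG once, 47 bases before it. The *Itgb7* window held none of the 6 motifs. Among the other 4 windows, GAGGAA had 2 matches in that of *Cd44*, 1 each in those of *Itgb1* and *Itga5* and 0 in that of *Itga4*, while GGGCGG had 2 matches for *Itga5*, 1 each for *Itga4* and *Itgb1* and 0 for *Cd44*. TGTGGT was matched only for *Itga4*, and neither CCGGAA nor TATAAA nor the E-box in any of the 6 windows. Of the 32851 RefSeq windows of this length, 23.3% held GAGGAA at least once and 3.54% at 2 or more places. GGGCGG was held by 32.7% of these windows, TGTGGT by 14.0%, TATAAA by 12.4%, CCGGAA by 12.0% and CACGTG by 6.02%.

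In *Gdpd3*+/+ LT-CML stem cells the 9 genes spanned an order of magnitude in FPKM, which is a level per length of all annotated exons. That length was 13978 bases for *Itga4* and 2743 for *Itgb7*. It can exceed that of the transcripts present, so the order between genes depends on it. *Itgb1* was the highest at 85.5 ± 4.48 FPKM (SD, n = 3), above 95.7% of the genes tested by its mean over both groups. It was followed by *Itgb2*, *Cd44*, *Itgam*, *Itga6*, *Itgb7*, *Itga5*, *Itgal* and *Itga4*, the lowest at 7.40 ± 0.293 FPKM (SD, n = 3). The ranges of the *Gdpd3*+/+ libraries did not overlap between neighbours in this order, except between *Itga6* and *Itgb7* and between *Itgb7* and *Itga5*. In *Gdpd3*-/- cells the first 3 were again *Itgb1*, *Itgb2* and *Cd44*, followed by *Itgb7*, *Itga6*, *Itga5*, *Itga4*, *Itgam* and *Itgal*. *Itgam* held rank 4 in each *Gdpd3*+/+ library and ranks 5, 9 and 8 in *Gdpd3*-/- replicates 5, 6 and 7. *Itgb7* moved the other way, from ranks 6, 6 and 5 to ranks 3, 4 and 4. From *Cd44* down, *Itgb7* and *Itga6* were the only neighbours with ranges apart in *Gdpd3*-/-.

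**Figure D1:**
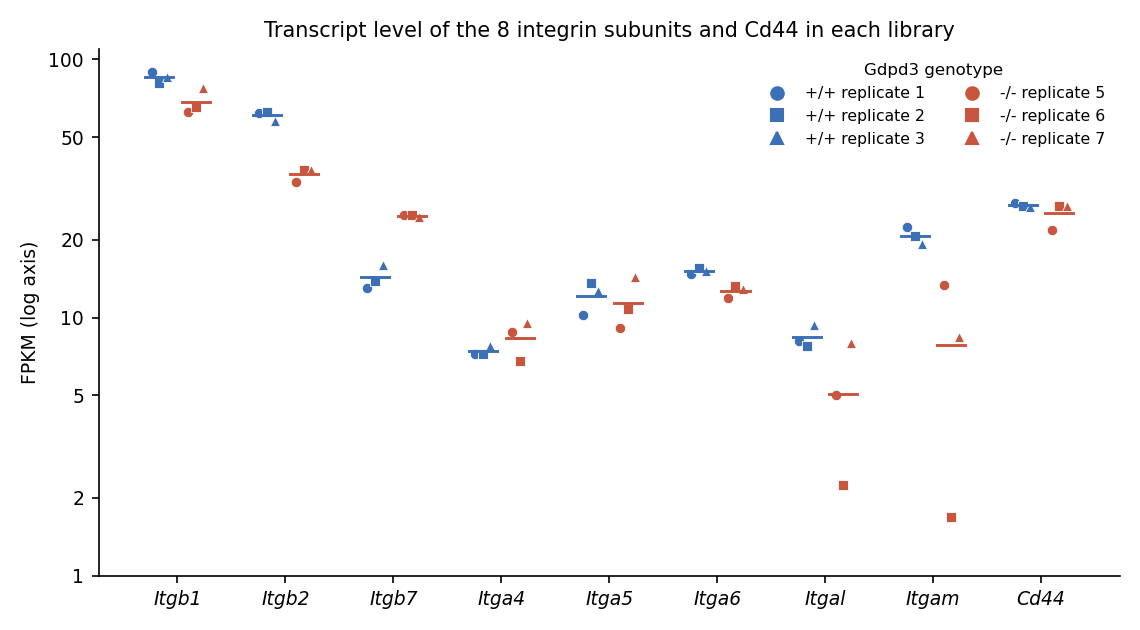
Transcript level in FPKM (log axis) of the 8 integrin subunit genes and *Cd44* in each library; blue points are the 3 *Gdpd3*+/+ libraries, red points the 3 *Gdpd3*-/- libraries, and horizontal bars the group means. *Itgb2* lies at 57.6 to 62.6 FPKM in *Gdpd3*+/+ and 33.6 to 37.4 FPKM in *Gdpd3*-/-, *Itgb7* at 13.1 to 16.0 and 24.5 to 25.0 FPKM, and the *Gdpd3*-/- libraries spread widest for *Itgam* and *Itgal*.

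Of the 3 beta subunit genes, *Itgb2* fell, *Itgb7* rose and *Itgb1* did not pass the test. Calls are at an adjusted p under 0.05 in limma with Benjamini-Hochberg adjustment over all genes tested, which called 1.71% of them, 1.09% higher and 0.616% lower in *Gdpd3*-/-. Of the 9 genes, 1 was called higher and 1 lower. At an unadjusted p under 0.05 in limma, 3 were lower (*Itgb1*, *Itgb2* and *Itgam*), against 5.76% of all genes tested, and 1 was higher (*Itgb7*), against 16.5%, or 22.2% in either direction. *Itgb2* was at 62.1, 62.6 and 57.6 FPKM in *Gdpd3*+/+ replicates 1, 2 and 3 and at 33.6, 37.4 and 37.2 FPKM in *Gdpd3*-/- replicates 5, 6 and 7. The groups were far apart and each was tight, with means of 60.8 ± 2.76 and 36.1 ± 2.15 FPKM (SD, n = 3 each), or 1.69-fold lower in *Gdpd3*-/-. The log2 fold change, taken on FPKM + 0.1 throughout, was −0.75 (standard error 0.094, limma adjusted p = 0.0275). *Itgb2* was below 0 in each of 17 alternative fits, but the call was lost when any one *Gdpd3*+/+ library was left out (adjusted p of 0.163 to 0.181) and without limma's intensity trend (adjusted p = 0.117). *Itgb2*, like *Itgam*, is also made by neutrophils, whose summed markers were lower in *Gdpd3*-/- as given above, and by monocytes, and their part in this difference was not tested.

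*Itgb7* was at 13.1, 13.9 and 16.0 FPKM in the *Gdpd3*+/+ libraries and at 25.0, 25.0 and 24.5 FPKM in the *Gdpd3*-/- libraries. Every *Gdpd3*-/- library was higher, and these 3 differed by only 1.02-fold from lowest to highest, the narrowest spread of the 9 genes in that group. The means were 14.3 ± 1.51 and 24.8 ± 0.298 FPKM (SD, n = 3 each), 1.74-fold higher in *Gdpd3*-/-. The log2 fold change was 0.80 (standard error 0.12, limma adjusted p = 0.0347). It was above 0 in each of 17 alternative fits and called in 7 of them. The call was lost under TMM scaling (log2 fold change 0.59, adjusted p = 0.0723), quantile normalization (0.70, 0.0527) and rescaling outside immunoglobulin and muscle genes (0.61, 0.0869), without the trend, with array weights, and without *Gdpd3*-/- replicate 5, replicates 5 and 6 together, or any *Gdpd3*+/+ library. *Itgb1*, the common partner chain, was at 89.8, 80.9 and 85.7 FPKM in *Gdpd3*+/+ and at 62.7, 65.2 and 77.6 FPKM in *Gdpd3*-/-. The groups did not overlap, but the log2 fold change of −0.32 (95% interval −0.59 to −0.06) had an adjusted p of 0.160 in limma, which became 0.0345 without *Gdpd3*-/- replicate 7.

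Among the alpha subunit genes none passed the adjusted threshold, and the largest difference was that of *Itgam*, the Mac-1 alpha chain. *Itgam* was at 22.3, 20.6 and 19.3 FPKM in *Gdpd3*+/+ and at 13.4, 1.69 and 8.43 FPKM in *Gdpd3*-/-. All 3 *Gdpd3*-/- libraries were lower, but they differed 7.95-fold among themselves, against 1.158-fold among the *Gdpd3*+/+ libraries. The means were 20.8 ± 1.53 and 7.85 ± 5.89 FPKM (SD, n = 3 each), 2.64-fold lower in *Gdpd3*-/-. The log2 fold change was −1.82 with a wide 95% interval, from −3.48 to −0.16 (limma adjusted p = 0.193). With *Gdpd3*-/- replicate 6 left out it was −0.95 (adjusted p = 0.0803), and with replicates 5 and 6 both left out it was −1.29 (adjusted p = 0.0247), a fit chosen after seeing the data in which the lone *Gdpd3*-/- library is assumed to vary like the others. Replicate 6 had the highest muscle sum and the lowest neutrophil sum, and the part of either in the *Itgam* value was not tested.

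*Itgal*, the LFA-1 alpha chain, showed a like pattern, at 8.08, 7.77 and 9.39 FPKM in *Gdpd3*+/+ and 5.00, 2.25 and 7.96 FPKM in *Gdpd3*-/-. Replicate 7 lay within the *Gdpd3*+/+ range, so the groups overlapped. The log2 fold change was −0.89 (95% interval −1.91 to 0.14, limma adjusted p = 0.277). *Itga6*, a laminin receptor chain long used as a surface marker of stem cells, was at 14.7, 15.5 and 15.1 FPKM against 12.0, 13.3 and 12.9 FPKM. The groups did not overlap, and the log2 fold change was −0.25 (95% interval −0.51 to 0.01, limma adjusted p = 0.240).

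*Itga4*, which pairs with beta1 or beta7, was at 7.21, 7.26 and 7.74 FPKM in *Gdpd3*+/+ and 8.77, 6.79 and 9.53 FPKM in *Gdpd3*-/-. The groups overlapped (log2 fold change 0.16, 95% interval −0.24 to 0.56, limma adjusted p = 0.574). The *Itga4* exons share 1124 bases with *Cerkl* on the opposite strand, which was at 1.92 to 4.35 FPKM, and whether reads were counted by strand is not given in the sources used here. *Itga5*, the fibronectin receptor chain, ranged from 10.2 to 13.6 FPKM in *Gdpd3*+/+ and from 9.08 to 14.3 FPKM in *Gdpd3*-/- (log2 fold change −0.10, 95% interval −0.60 to 0.39, limma adjusted p = 0.771). *Cd44* was at 27.9, 27.1 and 26.7 FPKM against 21.8, 27.2 and 27.0 FPKM, so only replicate 5 lay below the *Gdpd3*+/+ libraries (log2 fold change −0.11, 95% interval −0.40 to 0.17, limma adjusted p = 0.575). These intervals leave room for changes of either sign in the 3 genes. Their signs also depended on scaling, since *Itga4* turned below 0 under TMM scaling and the rescaling, and *Itga5*, *Itga6* and *Cd44* turned above 0 when FPKM was divided by its library sum.

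The median gene had a log2 fold change of 0.24, and 8 of the 9 genes, all but *Itgb7*, lay below it, with a median of their own of −0.25. Among genes with a mean of at least 1 FPKM the median was 0.14, and 7 of the 9 genes lay below it. The count was also 7 under quantile normalization and without *Gdpd3*-/- replicate 6. Relative to the median of all genes tested, *Itgb2* was at −0.99 and ranged from −1.01 to −0.88 over the main and 4 other scalings, *Itgb1* was at −0.56 (−0.58 to −0.48) and *Itgb7* at 0.56 (0.54 to 0.70). On the same scale *Itgam* was at −2.06 (−2.07 to −1.99). TMM, TPM and the rescaling divide each library by a constant, which shifts every gene and the median almost alike. These ranges were therefore narrow by construction, apart from quantile normalization, which gave the upper end of each. The 3 libraries of each group did not overlap for 5 of the 9 genes, 4 of them lower in *Gdpd3*-/- (*Itgb1*, *Itgb2*, *Itga6* and *Itgam*) and 1 higher (*Itgb7*). Among all genes tested 31.8% did not overlap, 8.27% lower and 23.5% higher in *Gdpd3*-/-, and among those with a mean of at least 1 FPKM 38.4% did not overlap, 10.2% lower and 28.2% higher. A two-sided exact permutation test of mean FPKM gave p = 0.1 for each of these 5, the smallest p that 20 assignments of 3 libraries against 3 allow, and p = 0.2 to 0.8 for the others.

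**Figure D2:**
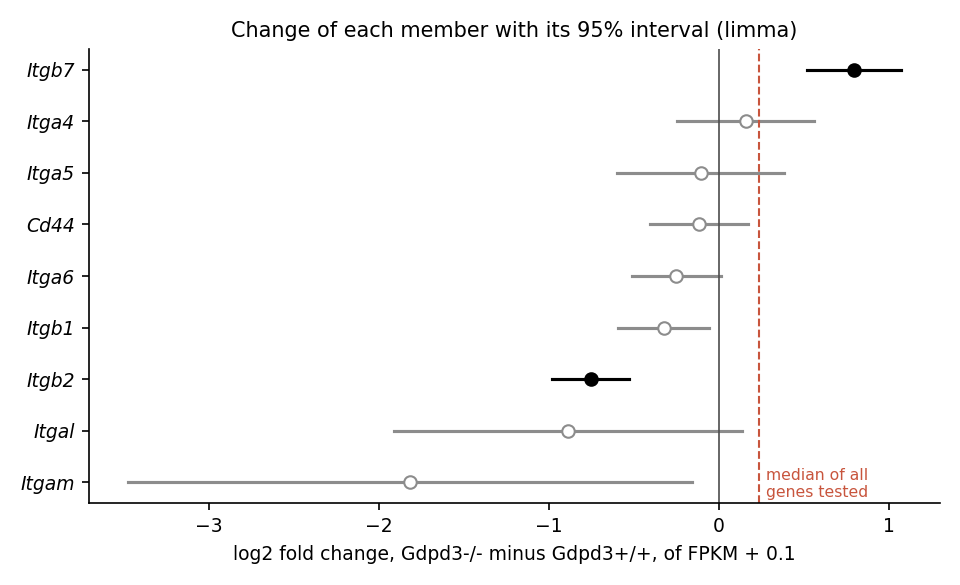
Log2 fold change of FPKM + 0.1 (*Gdpd3*-/- minus *Gdpd3*+/+, n = 3 libraries each) of the 9 genes, with 95% intervals from limma. Filled black points are the genes with an adjusted p under 0.05 (*Itgb7* at 0.80 and *Itgb2* at −0.75), open points the others, and the dashed line is the median of all genes tested at 0.24.

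The SD of log2 values among *Gdpd3*-/- libraries was 14.5 times that among *Gdpd3*+/+ libraries for *Itgam*, 6.32 times for *Itgal*, 5.89 times for *Cd44* and 4.52 times for *Itga4*. For *Itgb7* it was 0.117 times. For genes with a mean of at least 1 FPKM the median SD was 0.121 in *Gdpd3*+/+ and 0.341 in *Gdpd3*-/-, so the median gene, too, was wider in *Gdpd3*-/-. In *Gdpd3*-/- the SD was below that median for 7 of the 9 genes, from 0.0173 for *Itgb7* to 0.329 for *Itga5* and with *Cd44* at 0.182 and *Itga4* at 0.252, and above it for *Itgal* (0.900) and *Itgam* (1.53). In units of the spacing used for depth, the least signal lay behind *Itgam* in *Gdpd3*-/- replicate 6. The most lay behind *Itgb1* in *Gdpd3*+/+ replicate 3. Read numbers were not established.

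Because alpha and beta chains act as pairs, ratios of FPKM were taken within each library, which removes the scaling between libraries. The ratio of *Itgb7* to *Itgb1* was 0.145, 0.172 and 0.186 in *Gdpd3*+/+ and 0.399, 0.384 and 0.316 in *Gdpd3*-/-. It was higher in every *Gdpd3*-/- library, by 1.13 on the log2 scale, and by 1.03 to 1.23 with any one library left out. *Itgb2* to *Itgb1* was 0.692, 0.774 and 0.672 against 0.535, 0.573 and 0.480, lower in every *Gdpd3*-/- library by a log2 difference of −0.43. *Itga4* to *Itgb7*, the alpha4beta7 pair, was 0.552, 0.523 and 0.484 against 0.350, 0.271 and 0.389, lower in every *Gdpd3*-/- library by a log2 difference of −0.64. With beta1 as the partner, *Itga4* to *Itgb1* was 0.0803, 0.0897 and 0.0903 against 0.140, 0.104 and 0.123, a log2 difference of 0.49 with the groups again apart. *Itga6* to *Itga4* was apart too, with a log2 difference of −0.41.

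The other 5 of the 10 ratios overlapped between the groups. The 10 ratios reuse the same genes and are not independent, and no share for other gene pairs was computed. *Itga6* to *Itgb1* differed by 0.07 on the log2 scale (exact permutation p = 0.5) and *Itga5* to *Itgb1* by 0.22 (exact permutation p = 0.5). *Itgam* to *Itgb2*, the Mac-1 pair, was 0.360, 0.329 and 0.335 in *Gdpd3*+/+ and 0.400, 0.0452 and 0.226 in *Gdpd3*-/-, so replicate 5 lay above and replicates 6 and 7 below the *Gdpd3*+/+ libraries (log2 difference −1.09, exact permutation p = 0.4). *Itgal* to *Itgb2*, the LFA-1 pair, differed by −0.15 (exact permutation p = 0.9), and by 0.37 without *Gdpd3*-/- replicate 6, where the ratio was 0.0602. *Itgam* to *Itgal* differed by −0.94 (exact permutation p = 0.3). The exact permutation p of each ratio with the groups apart was 0.1, the smallest possible, so no ratio could pass 0.05, with or without adjustment over the 10.

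**Figure D3:**
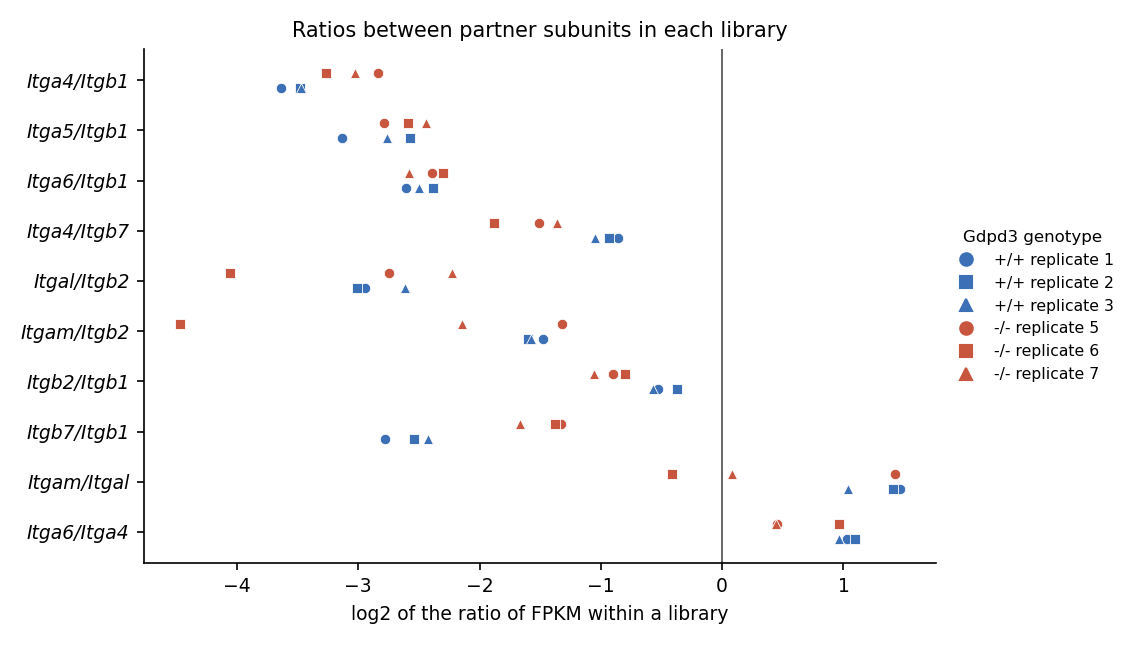
Log2 of the ratio of FPKM between partner subunit genes within each library, blue for the 3 *Gdpd3*+/+ and red for the 3 *Gdpd3*-/- libraries. The groups are apart for 5 of 10 ratios, widest for *Itgb7*/*Itgb1* (difference 1.13), and *Gdpd3*-/- replicate 6 lies far to the left for *Itgal*/*Itgb2* and *Itgam*/*Itgb2*. The ratios share genes and are not independent.

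Seen as shares, *Itgb1* made up 53.2% ± 1.597 of the summed FPKM of the 3 beta genes in *Gdpd3*+/+ and 52.8% ± 2.50 in *Gdpd3*-/- (SD, n = 3 each, exact permutation p = 0.9). *Itgb2* made up 37.9% ± 1.82 and 27.9% ± 1.30, and *Itgb7* 8.92% ± 1.06 and 19.3% ± 1.55 (SD, n = 3 each), with no overlap between the groups for either (exact permutation p = 0.1). Among the 5 alpha genes, *Itgam* was the largest share in each *Gdpd3*+/+ library, at 32.5% ± 2.89 (SD, n = 3), and was 27.8%, 4.85% and 15.9% in *Gdpd3*-/- replicates 5, 6 and 7. *Itga4* made up 11.6% ± 0.425 and 18.5% ± 0.849 (SD, n = 3 each), apart in every library, although its own FPKM overlapped between the groups. The summed FPKM itself was lower in *Gdpd3*-/-, at 161 against 129 for the beta genes and 63.8 against 45.4 for the alpha genes (group means, exact permutation p = 0.1 for each). Shares within a pool are not independent of each other.

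**Figure D4:**
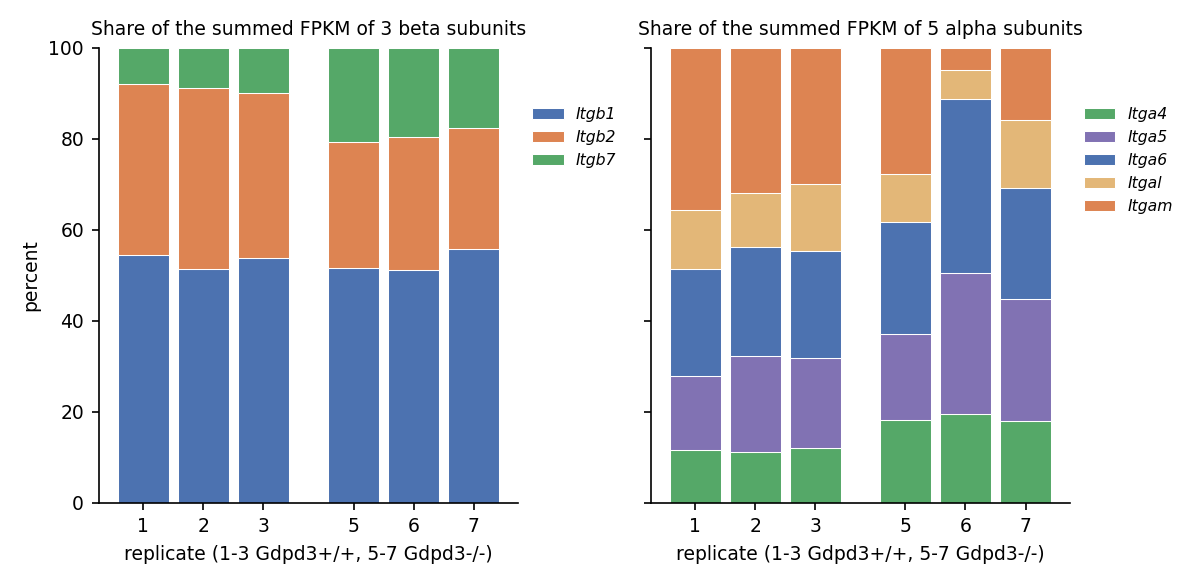
Share in percent of the summed FPKM of the 3 beta (left) and 5 alpha (right) subunit genes in each library, replicates 1 to 3 *Gdpd3*+/+ and 5 to 7 *Gdpd3*-/-. *Itgb1* takes 51.1% to 55.7% of the beta sum throughout, *Itgb7* takes 7.92% to 10.03% and then 17.6% to 20.6%, and *Itgam* takes as little as 4.85% of the alpha sum in replicate 6.

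The 8 genes had 18 further integrin subunit genes beside them, of which 15 were tested. Limma called 0 of the 15, with 3 higher and 2 lower at an unadjusted p under 0.05, and their median log2 fold change was −0.01. *Itga2b* (23.2 to 45.7 FPKM) and *Itgb3* (9.06 to 19.8 FPKM), the platelet fibrinogen receptor pair, were the highest of them, with log2 fold changes of −0.49 (adjusted p = 0.208) and −0.37 (adjusted p = 0.505). *Itgb5* (log2 fold change 1.44, adjusted p = 0.129) and *Itga7*, the muscle laminin receptor chain (2.11, adjusted p = 0.150), had the smallest p-values. *Itga7* was at 0.0594 to 0.139 FPKM in *Gdpd3*+/+ and at 1.57, 1.15 and 0.224 FPKM in *Gdpd3*-/- replicates 5, 6 and 7, beside the muscle sums given above, whose part was not tested. *Itgae*, the other partner of beta7, was at 0.385 to 0.430 FPKM in *Gdpd3*+/+ and at 1.78, 4.91 and 0.625 FPKM in *Gdpd3*-/-, higher in every library but not called (log2 fold change 1.89, limma adjusted p = 0.182).

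Of 24 genes for ligands of these receptors, 17 were tested, and 2 were called lower and 0 higher. *Vcam1*, the ligand of alpha4 integrins, was at 19.7, 14.5 and 20.01 FPKM in *Gdpd3*+/+ and at 2.83, 1.08 and 4.62 FPKM in *Gdpd3*-/- (log2 fold change −2.82, limma adjusted p = 0.0487). *C3*, whose cleaved fragment binds Mac-1, was at 36.7, 40.6 and 37.6 FPKM against 8.29, 6.58 and 13.5 FPKM (log2 fold change −2.07, limma adjusted p = 0.0275). Both were lower in every *Gdpd3*-/- library. These calls, and those of *Zyx* and *Cd34* given below, are the 4 among 120 genes tested in the 7 other adhesion lists. Over all genes tested 1.71% were called, and whether the lists differ from that share was not tested. Of the lists' genes, 0 were called without limma's trend or with any one *Gdpd3*+/+ library left out. The count was 1 under quantile normalization or the rescaling, and 2 with a pseudocount of 1, with no filter or without *Gdpd3*-/- replicate 5. *Vcam1* is also a macrophage gene and stood in the monocyte and macrophage list. *Icam2*, a ligand of LFA-1, was at 28.2 to 35.1 FPKM over all 6 libraries (log2 fold change 0.16, adjusted p = 0.415).

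Genes that act on integrins from within the cell were mostly not called. Of 19 genes of the activator list 0 were called, with 5 higher and 3 lower at an unadjusted p under 0.05. Among them were *Rap1b* (log2 fold change −0.45, limma adjusted p = 0.0756) and *Tbc1d10c* (0.63, adjusted p = 0.0811). This list was not purely of activators, since *Tbc1d10c* and *Sipa1l1* encode GTPase-activating proteins, as does *Sipa1* of the inhibitor list. *Fermt3*, encoding the kindlin of blood cells that binds beta tails, was at 154 to 201 FPKM (log2 fold change 0.18, adjusted p = 0.391). Of 8 inhibitor genes 0 were called, with 1 higher and 1 lower at an unadjusted p under 0.05. These were *Sipa1* (0.41, adjusted p = 0.173), which acts on Rap1, and *Sharpin* (−0.48, adjusted p = 0.101), which binds alpha tails, while *Flna* and *Rasa3*, the highest of that list, had log2 fold changes of −0.22 and −0.01. Of 24 focal adhesion genes tested, 1 was called higher and 0 lower, with 3 higher and 2 lower at an unadjusted p under 0.05 in limma. *Zyx*, which encodes the adhesion protein zyxin, was at 62.8, 64.8 and 66.2 FPKM against 94.3, 87.9 and 89.3 FPKM (log2 fold change 0.49, limma adjusted p = 0.0485). The groups were apart for *Zyx*. *Vcl*, which encodes vinculin, was lower in every *Gdpd3*-/- library but was not called (log2 fold change −0.87, limma adjusted p = 0.0891). *Parvg*, the highest of the list beside *Zyx*, overlapped between the groups (0.03, adjusted p = 0.917).

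Around *Cd44*, 17 genes for linkers, sugar modification and shedding were tested and 0 were called, with 4 higher and 2 lower at an unadjusted p under 0.05. *Fut7*, a fucosyltransferase that makes selectin ligands, had a log2 fold change of 0.70 (limma adjusted p = 0.0622) and *Hyal2*, a hyaluronidase, of 0.62 (adjusted p = 0.0756). *Msn*, encoding moesin, which ties Cd44 to actin, was at 74.5 to 85.4 FPKM over all 6 libraries (−0.10, adjusted p = 0.506), and *Adam10*, a protease that sheds Cd44, had a log2 fold change of −0.76 (adjusted p = 0.162). Of 20 other adhesion and homing receptors 1 was called, and it was higher. This was *Cd34*, a sialomucin of stem and progenitor cells, at 111, 111 and 105 FPKM in *Gdpd3*+/+ and 187, 195 and 221 FPKM in *Gdpd3*-/- (log2 fold change 0.88, limma adjusted p = 0.0204). *Selplg*, the P-selectin ligand (0.49, adjusted p = 0.0585), and the tetraspanin *Cd81* (0.08, adjusted p = 0.637) were not called.

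**Figure D5:**
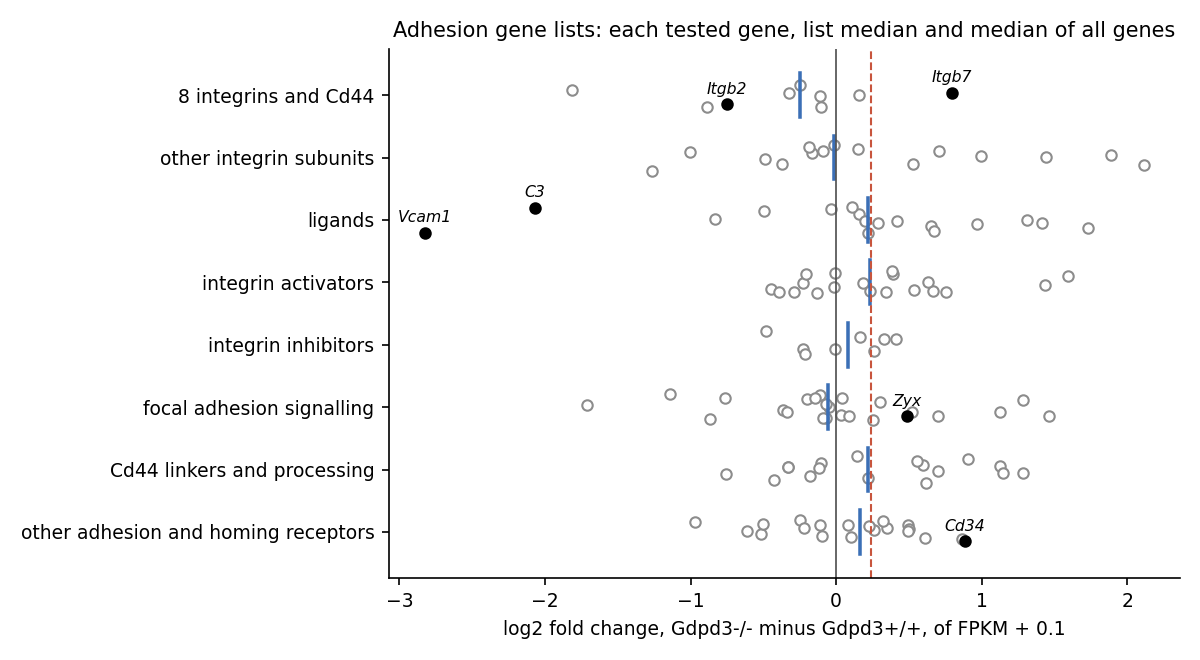
Log2 fold change of FPKM + 0.1 (*Gdpd3*-/- minus *Gdpd3*+/+) of every tested gene in the list of 8 integrins and *Cd44* and in 7 other adhesion lists; points are jittered vertically, filled and named where the adjusted p was under 0.05. Blue bars are list medians, which run from −0.25 for the 8 integrins and *Cd44* to 0.23 for the list named integrin activators. That list also holds *Tbc1d10c* and *Sipa1l1*, which encode GTPase-activating proteins. The dashed line is the median of all genes at 0.24.

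To see which adhesion genes followed the same course over the 6 libraries, each gene was compared with the 96 adhesion genes of at least 1 FPKM by the root mean square distance of log2(FPKM + 0.1), centred on each gene's own mean. *Itgb7* was nearest to *Cd34* (distance 0.145, against a median of 0.485 over the 96 genes). *Itgam* was nearest to *Fgr* (0.176, against a median of 1.29), a Src family kinase gene at 7.55 to 8.57 FPKM in *Gdpd3*+/+ and 6.32, 0.526 and 3.95 FPKM in *Gdpd3*-/-, which shared the low value of replicate 6. *Itgal* was nearest to *Adam10* (0.220) and *Itgb2* to *Tek* (0.155), the angiopoietin receptor gene. *Itgb1* was nearest to *Rap1a* (0.0744), *Itga6* to *Lims1* (0.0654), *Cd44* to *Rassf5* (0.0674), *Itga4* to *Rasa3* (0.0909) and *Itga5* to *Fyn* (0.0935). These distances are descriptions over 6 libraries that share their depth and composition.

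In the mm9 coordinates of the table, *Itgb2* (ENSMUSG00000000290.7) lies at chr10:76992997-77028453 on the plus strand and *Itgb7* (ENSMUSG00000001281.3) at chr15:102046426-102062366 on the minus strand. *Itga5* is on the same chromosome at chr15:103174720-103197194. *Itgal* and *Itgam* (ENSMUSG00000030786.11) lie on chromosome 7, at chr7:134439774-134478651 and chr7:135206154-135271674, both on the plus strand, and *Gdpd3* lies nearby at chr7:133909928-133919157. Values were per gene over all annotated exons, so isoforms, of which *Cd44* has many, were not told apart.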

How the data were processed

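RNA was sequenced with SMART-Seq v4 from 6 libraries, with the genotype of each taken from its labels. The authors trimmed paired-end reads of 150 bases (Trimmomatic, Trim Galore and cutadapt 1.16 are named in the submitters' processing notes), mapped them with STAR 2.6.1a to mm9 and named featureCounts 1.6.1. They deposited FPKM values (fragments per kilobase of gene, scaled to the fragments mapped), with 0 columns of samples left unused, and a DESeq2 comparison of the genotypes, which was not used here. FPKM times the deposited gene length was a whole multiple of 1 step per library (100% of low values within 0.05 of a step). Whether a step is a covered base or a fraction of a fragment was not established. Steps were used only for relative depth, and no count model was run.

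Genes with a mean of at least 0.05 FPKM were tested on the log2(FPKM + 0.1) scale in limma 3.58.1 (R 4.3.3), using its intensity trend and genotype as the single term, with Benjamini-Hochberg adjustment over 24689 genes. Standard errors, 95% intervals and p-values are from this fit. Two-sided exact permutation tests of group means and subunit ratios were run in SciPy 1.17.1. The methods call the samples biologically independent but do not assign mice to libraries. The 9 genes, the gene lists and the tests were chosen with earlier results of these data known. The genes named are the 9 and *Gdpd3*, and from each other adhesion list those called, the 2 highest and the 2 with the smallest p, from the marker lists the gate genes and the most abundant, and the nearest profile for each of the 9. *Itgae*, *Cerkl*, *Cpa3*, *Sipa1l1*, *Tcf7* and *Cd79b*, outside this rule, were added with their values in view. The 6 motifs were chosen after the results were known, and all are reported. 1 gene of the focal adhesion list is not reported here and was taken out of the counts of that list. Protein sequences, and promoters of *Itgal*, *Itgb2* and *Itga6*, were not analysed here. The script was tested on simulated data before use. Other settings tried were a pseudocount of 0.01 or 1, leaving the filter off, a filter at a mean of at least 1 FPKM, TMM scaling (30% of M and 5% of A values trimmed, unweighted), quantile normalization, FPKM divided by its library sum (TPM), rescaling to the total outside 255 immunoglobulin and 13 skeletal muscle genes, array weights, limma without its trend, and the omission of each library in turn.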

Additional observations from a re-analysis of the deposited data

How the results depend on the processing

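Over 17 alternative fits, *Itgb2*, *Itgb1*, *Itgal* and *Itgam* were below 0 and *Itgb7* was above 0 in all, *Itgb2* was called in 13 and *Itgb7* in 7. No paired analysis was run, since the labels give no pairing of libraries between the groups. DESeq2 and edgeR were not run, since counts were not used here. The median log2 fold change over genes, 0.24, became 0.05 (TMM), −0.01 (quantile), 0.51 (TPM) and 0.07 (rescaling). Against 422 genes called (270 higher, 152 lower), a pseudocount of 1 gave 225 (124 and 101), no filter 213 (125 and 88), a mean of at least 1 FPKM 673 (471 higher), TPM 3872 (3618 and 254), the rescaling 253 (103 higher, 150 lower), no trend 153 (79 and 74), array weights 240 (124 higher, 116 lower), TMM 118 higher and 237 lower, and quantile normalization 119 higher and 206 lower. Leaving out both *Gdpd3*-/- replicates 5 and 6, added after seeing the data, gave 2294 (1896 and 398). With 1 library left out the counts were lowest, 0, when *Gdpd3*+/+ replicate 1 was dropped and highest, 3413, when *Gdpd3*-/- replicate 7 was, from 0 to 2364 higher and from 0 to 1049 lower. Of the 9 genes, 1 was called under TMM, quantile normalization, the rescaling and array weights and 0 without the trend, where 0 were called lower. The count called higher was 0 in these 5 and 0 without replicates 5 and 6, where 2 were lower; with 1 library left out it was 0 to 3 in all, 0 to 1 higher and 0 to 2 lower. Leaving out a library also leaves fewer samples; for the other changes the cause was not tested.

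Log2 fold changes that changed sign were *Itga4* under TMM (−0.043) and the rescaling (−0.026), *Itga5* under TPM (0.17), without replicates 5 and 6 (0.25) and without replicate 5 (0.046), *Itga6* under TPM (0.025) and *Cd44* under TPM (0.16), none of them called. Without the trend *Itgb2* was −0.75 (adjusted p = 0.117). *Itgb7* was no longer called under TMM (0.59), quantile normalization (0.70), the rescaling (0.61), no trend (0.80), array weights (0.76) and without replicates 5 and 6 (0.78), with limma adjusted p of 0.0527 to 0.117, and *Itgam* was then called (−1.29). With 1 library left out the ranges were −0.79 to −0.70 for *Itgb2*, 0.73 to 0.88 for *Itgb7*, −0.42 to −0.26 for *Itgb1*, −2.41 to −0.95 for *Itgam*, −1.29 to −0.40 for *Itgal*, −0.28 to −0.21 for *Itga6*, 0.06 to 0.30 for *Itga4*, −0.28 to 0.05 for *Itga5* and −0.17 to −0.01 for *Cd44*. The ratios then ranged from 0.38 to 0.60 (*Itga4*/*Itgb1*), 0.06 to 0.34 (*Itga5*/*Itgb1*), 0.01 to 0.15 (*Itga6*/*Itgb1*), −0.75 to −0.49 (*Itga4*/*Itgb7*), −0.54 to 0.37 (*Itgal*/*Itgb2*), −1.75 to −0.18 (*Itgam*/*Itgb2*), −0.49 to −0.36 (*Itgb2*/*Itgb1*), 1.03 to 1.23 (*Itgb7*/*Itgb1*), −1.47 to −0.55 (*Itgam*/*Itgal*) and −0.59 to −0.32 (*Itga6*/*Itga4*). Calls in the 7 adhesion lists, taken as 1 total of 4 after its values were seen, were 2 at a pseudocount of 1, 2 with no filter, 1 under quantile normalization, 21 under TPM, 1 under the rescaling, 0 without the trend, 7 without replicates 5 and 6, and 0 to 18 with 1 library left out.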

Other observations

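Marker sums of other blood cell types, none of them tested as sums, moved in several ways between the libraries. The summed FPKM of 8 eosinophil, basophil and mast cell genes was 2151 to 2691 in *Gdpd3*+/+ and 675 to 1644 in *Gdpd3*-/-, most of it *Prg2*, which encodes a granule protein of eosinophils, while *Cpa3*, a mast cell protease gene, was called higher (log2 fold change 1.86, limma adjusted p = 0.0483). That of 9 T and NK cell genes, most of it *Nkg7*, was 387 to 462 and 154 to 323 FPKM, and that of 7 B and plasma cell genes, most of it *Igj*, was 2040 to 2640 and 963 to 1786 FPKM. By gene, the T and NK cell list had 1 lower in every *Gdpd3*-/- library (*Nkg7*), 1 higher (*Tcf7*) and 7 overlapping. The B and plasma cell list had 2 lower, 1 higher (*Cd79b*) and 4 overlapping, and 0 genes were called in either list. The eosinophil, basophil and mast cell list had 3 lower, 2 higher and 3 overlapping. The groups overlapped for 8 erythroid genes (2824 to 4624 and 1839 to 4590 FPKM) and for the megakaryocyte genes (237 to 344 and 216 to 527 FPKM). The sum of 9 endothelial and stromal genes, cells of the niche that bear many of the ligands, stayed at or below 4.14 FPKM in every library. The sum of the 10 genes of the stem cell gate was 706 to 784 FPKM in *Gdpd3*+/+ and 779 to 1015 FPKM in *Gdpd3*-/-.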
